A study of Mus musculus with 39 samples.

Results

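The genes described here encode mitochondrial fatty acid oxidation enzymes and 1 kinase that sets the choice between fat and glucose: Cpt1a, Cpt1b, Cpt2, Acadvl, Acadl, Acadm, Hadha, Hadhb and Pdk4. They were found by gene name in the array annotation and are 9 of its 29411 gene names, with 11 of its 40628 probes. Long-chain fatty acids cross into mitochondria as carnitine esters, which CPT1 forms at the outer membrane and CPT2 converts back to acyl-CoA at the inner membrane. CPT1 is the controlled step of the pathway. Cpt1a encodes its liver form, present in many tissues, and Cpt1b its muscle form, which brown fat also uses. Acyl-CoA dehydrogenases for very long (Acadvl), long (Acadl) and medium (Acadm) chains start each round of oxidation, and the trifunctional protein, with its subunits from Hadha and Hadhb, completes it for long chains. Pdk4 encodes a kinase that switches off the pyruvate dehydrogenase complex, typically in fasting, and so spares glucose. White adipose tissue stores most of its fatty acids, whereas brown and beige adipocytes burn them for heat.

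RNA of subcutaneous adipose tissue from C57BL/6J mice was measured on 39 arrays. Mice weaned at 3 to 4 weeks of age received either a normal low-fat diet (LFC, 10% of calories from fat, 10 arrays) or a high-fat diet with added sucrose (HFC, 60% of calories from fat, 11 arrays), and 3 further groups ate the high-fat diet with 5, 20 or 75 µg of KAL-1, a botanical formulation (HF5, HF20 and HF75, 6 arrays each). Each diet had 1 array at a time point. LFC and HFC were sampled on Day 6, Day 10, Day 14 and Week 0 (the early time points) and at Week 3, 6, 9, 12, 15 and 18, the KAL-1 groups only from Week 3 on, and HFC also on Day 1; weeks were counted from Day 14. The labels do not say how many mice contributed to an array. The design text speaks of 3 biological replicates for each diet, and some titles of Week 0 and Week 3 carry R2 or R3, but only 1 array per diet and time point was analysed here. Therefore the arrays of a diet at different time points stand in for replicates. In HFC against LFC over 10 time points, a p-value measures the spread of the difference between time points. The diet comparisons over Week 3 to Week 18 share 1 spread, taken from all 30 arrays of those weeks, KAL-1 groups included. The change per week uses the spread of single arrays around a line. Late against early uses that of single arrays, with arrays of a time point treated as related.

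A level is the log2 intensity of a gene minus the log2 of the 75th percentile intensity of the same array, so 0 is that percentile. Between 49.3% and 87.8% of spots on an array were well above background, and the main probe of each of the 9 genes was so on 39 of 39 arrays. The brightest spots were saturated for Acadvl on 3 arrays (LFC and HFC at Day 6, LFC at Week 12) and for Acadm and Hadhb on the HFC array of Day 6, where the level is a lower bound. Ckm was saturated on the HFC array of Day 1 and the HF75 array of Week 3, so its levels there are lower bounds too, also in the correlations over 39 arrays. All 10 adipocyte markers were well above background on every array. On 3 arrays, the level of Ckm, the creatine kinase of muscle, was above 4: HFC at Day 1, HF75 at Week 3 and HF5 at Week 12. All 17 skeletal muscle markers were well above background on them, with a summed log2 level of 9.81 to 11.4, against 1.51 to 9.23 on the other 36 arrays. The main results are also given without these arrays. In the deposited table of log2 ratios, the Week 12 columns of HF5 and HF20 matched the array of the opposite label (r = 0.999 over probes, against 0.663 and 0.666 for their own), so these 2 arrays are called the arrays labelled HF5 and HF20. The title of the HF5 sample also carries the letter B after the week where the titles of HF20, HF75 and HFC carry S, and the title of the LFC sample of that week carries neither a week nor either letter, which the labels do not explain. The scanner headers gave 14 scan days. The 2 arrays of an HFC and LFC pair shared a scan day at 8 of 10 time points, all but Day 6 and Week 12. The HF20 array of Week 15 had 4936 spots with an outlier flag, against a median of 42. In whole tissue, fewer cells of a type and less RNA per cell cannot be told apart.

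Upstream sequences were matched by symbol in RefSeq for 8 of the 9 genes (build GRCm38.p6). Hadha and Hadhb are shown first because both subunits of 1 enzyme are read from this stretch: the genes lie head to head on chromosome 5, with 272 bases between their starts, and the 250 bases before Hadhb, chr5:30155003-30155252 on the + strand, cover most of it. Acadvl (chr11:70015429-70015678, − strand) and Pdk4 (chr6:5496279-5496528, − strand) are shown as a dehydrogenase and the kinase, with levels of 7.38 and 6.03 on the HF75 array of Week 3. Each window reads 5′ to 3′ towards the gene and overlaps no annotated gene, and capitals mark the motifs found in it.
Hadhb: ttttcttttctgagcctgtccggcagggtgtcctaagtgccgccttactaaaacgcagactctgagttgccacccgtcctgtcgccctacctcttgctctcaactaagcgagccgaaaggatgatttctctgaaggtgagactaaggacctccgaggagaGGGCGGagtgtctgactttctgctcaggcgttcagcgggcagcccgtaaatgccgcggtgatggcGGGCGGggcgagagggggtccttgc
Acadvl: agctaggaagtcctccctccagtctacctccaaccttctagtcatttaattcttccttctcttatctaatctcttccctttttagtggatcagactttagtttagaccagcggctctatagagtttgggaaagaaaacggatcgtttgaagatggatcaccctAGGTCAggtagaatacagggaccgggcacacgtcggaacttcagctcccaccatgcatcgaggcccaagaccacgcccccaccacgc
Pdk4: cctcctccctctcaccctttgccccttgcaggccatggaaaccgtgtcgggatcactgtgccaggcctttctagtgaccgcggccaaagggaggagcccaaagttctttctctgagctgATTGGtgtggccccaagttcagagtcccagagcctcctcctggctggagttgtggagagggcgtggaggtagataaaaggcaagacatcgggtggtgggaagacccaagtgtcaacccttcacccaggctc

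Capitals in the Hadhb window are GC boxes (GGGCGG), which start at positions −90 and −25 from the start of the gene. In the Acadvl window they are a nuclear receptor half-site (AGGTCA) at position −87, and in the Pdk4 window a CCAAT box on the opposite strand. Motifs were searched on both strands from 250 bases before to 50 bases after the start. GC boxes were in 5 of 8 of these windows and in 35.7% of 32851 promoters of the same length. The only GC box of the Hadha window and the Hadhb box at −90 are the same bases, so 1 site counts for both windows. The half-site was in 3 of 8 and 16.3%, and CCAAT in 2 of 8 and 37.4%. None of the 8 held the direct repeat of that half-site with a 1-base spacer, the PPAR response element (0.0396% of promoters), the oestrogen-related receptor site TCAAGGTCA (0.423%) or the full glucocorticoid response element (0.00913%). The first and second of these contain the half-site. A match is a string of letters, and these counts say nothing of binding.

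Cpt1a and Cpt1b were each read by a pair of 60-base probes, and since these genes went in opposite directions, the first 30 bases of each probe are given, the main probe (the one with the higher mean level) first.
Cpt1a main probe: tcttaggactacttgctaacctctgttact
Cpt1a second probe: cagttccattaagcaacaaaataacagatg
Cpt1b main probe: taatgggcttcttacctgctttgaaatggg
Cpt1b second probe: ccaagcactgttggacatcgccgaactttt

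Over the arrays, the pair of probes correlated with r = 0.93 for Cpt1b (39 arrays) and r = 0.75 for Cpt1a (38 arrays). Without the arrays with a Ckm level above 4, r was 0.88 and 0.70.

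Of the 9 genes, 8 moved together across the arrays and Cpt1a moved against them. The same few arrays were high for nearly all of the 8. On the HFC arrays of Day 6 and Day 10, the HF75 array of Week 3 and the LFC array of Week 12, all 8 were among their own 8 highest levels. On the LFC array of Day 6 and the array labelled HF20 at Week 12, 7 of 8 were. Cpt1a ranked 34, 13, 39, 37, 33 and 28 of 39 on these 6 arrays. Ucp1, the heat-producing uncoupling protein of brown and beige fat, was at 2.60 to 6.52 on 5 of them, and at −3.36 on the HF75 array of Week 3, where Ckm was at 7.93 or above.

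**Figure D1:**
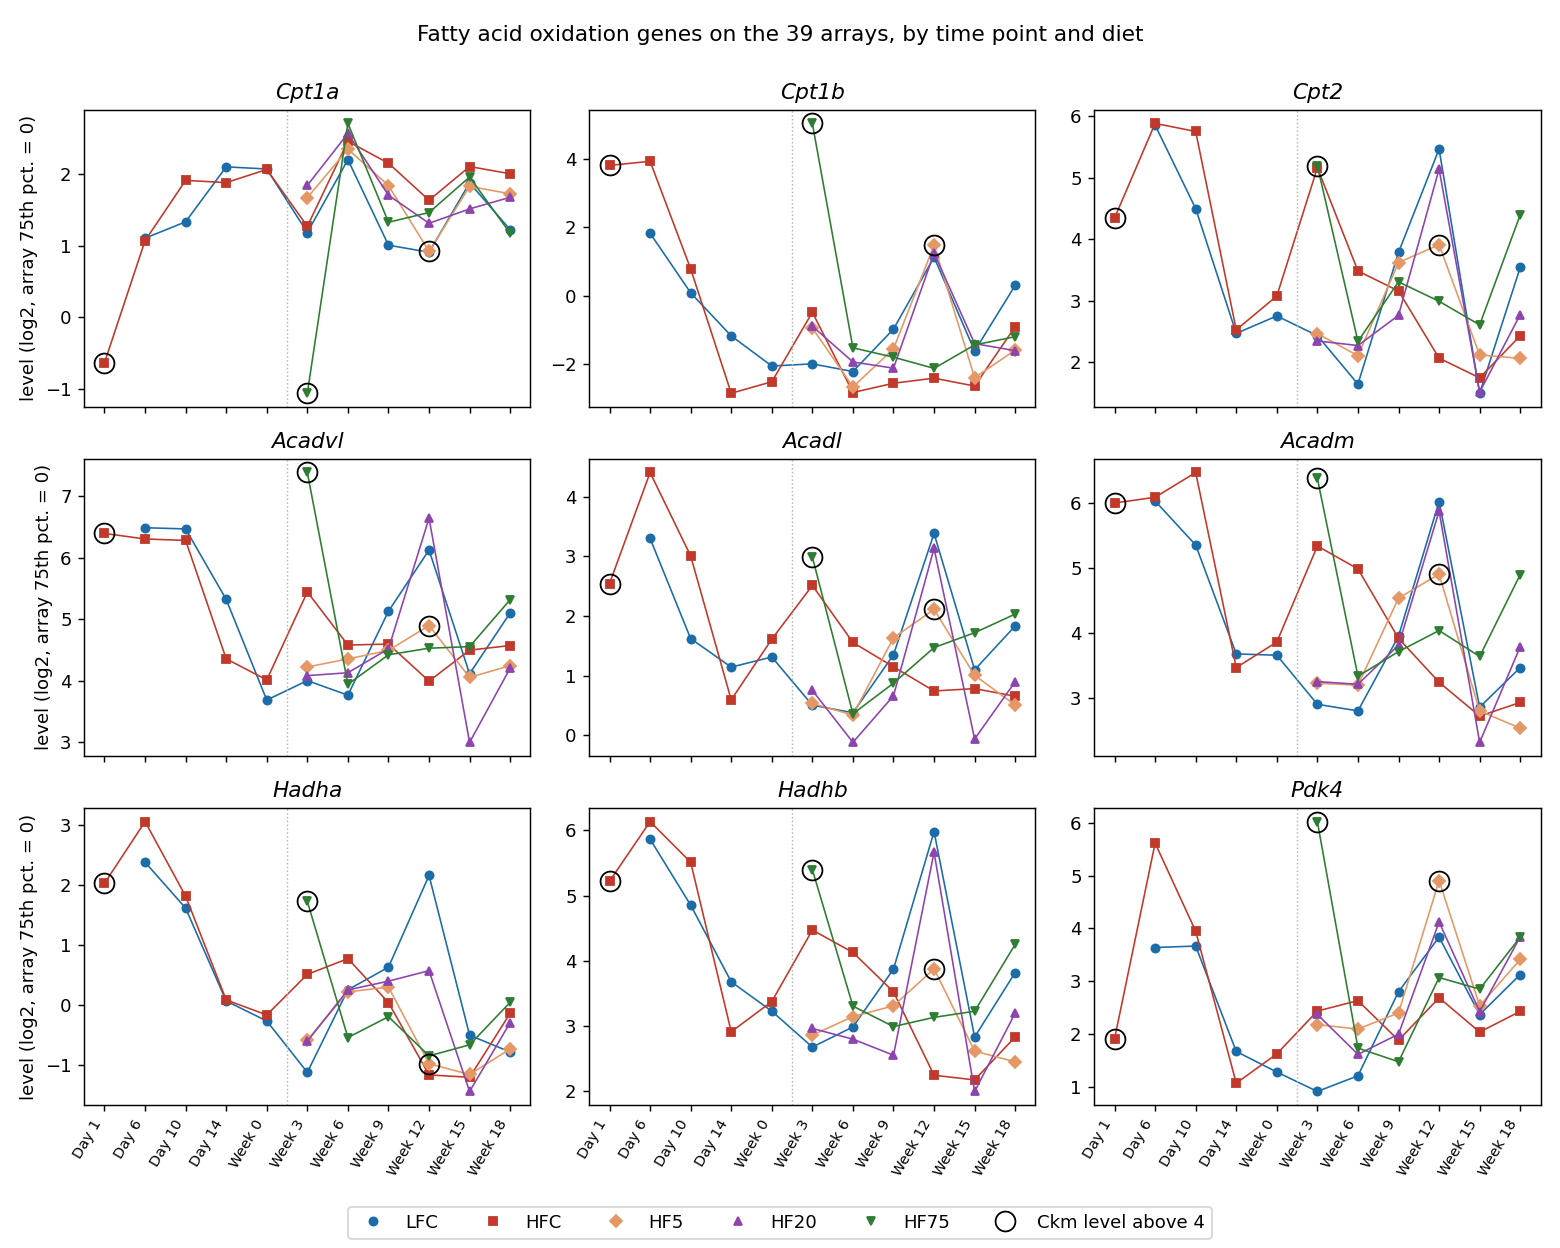
Level of each gene (y axis, log2, 0 is the 75th percentile of the array) on each of the 39 arrays by time point (x axis) and diet (colour and symbol, joined by lines), with open circles around the 3 arrays with a Ckm level above 4. The 8 genes other than Cpt1a share high values at Day 6 and Day 10. At Week 12 most of them are high on the LFC array and the array labelled HF20, but not on the HFC array. Cpt1a has its lowest values, −1.06 and −0.63, on 2 of the circled arrays.

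Pearson correlations between the levels of the 8 genes lay between 0.45 and 0.96 with a median of 0.80 for the 28 pairs over 39 arrays. They lay between 0.55 and 0.96 (median 0.82) over the 36 arrays with a Ckm level of at most 4, and between 0.58 and 0.95 (median 0.77) for deviations from the mean of a time point over 38 arrays. The closest pair was Cpt2 and Acadm (0.96), the carnitine acyltransferase of the inner membrane and the medium-chain dehydrogenase. Pdk4, the only gene of the 9 that is no oxidation enzyme, had 0.45 (Hadha) to 0.72 (Cpt1b) with the other 7. Cpt1a had −0.80 to −0.43 with the 8 over 39 arrays, −0.59 to −0.31 over 36, and −0.74 to −0.46 within time points. These arrays share time points and scan days, so the coefficients describe the arrays and are given without a test.

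**Figure D2:**
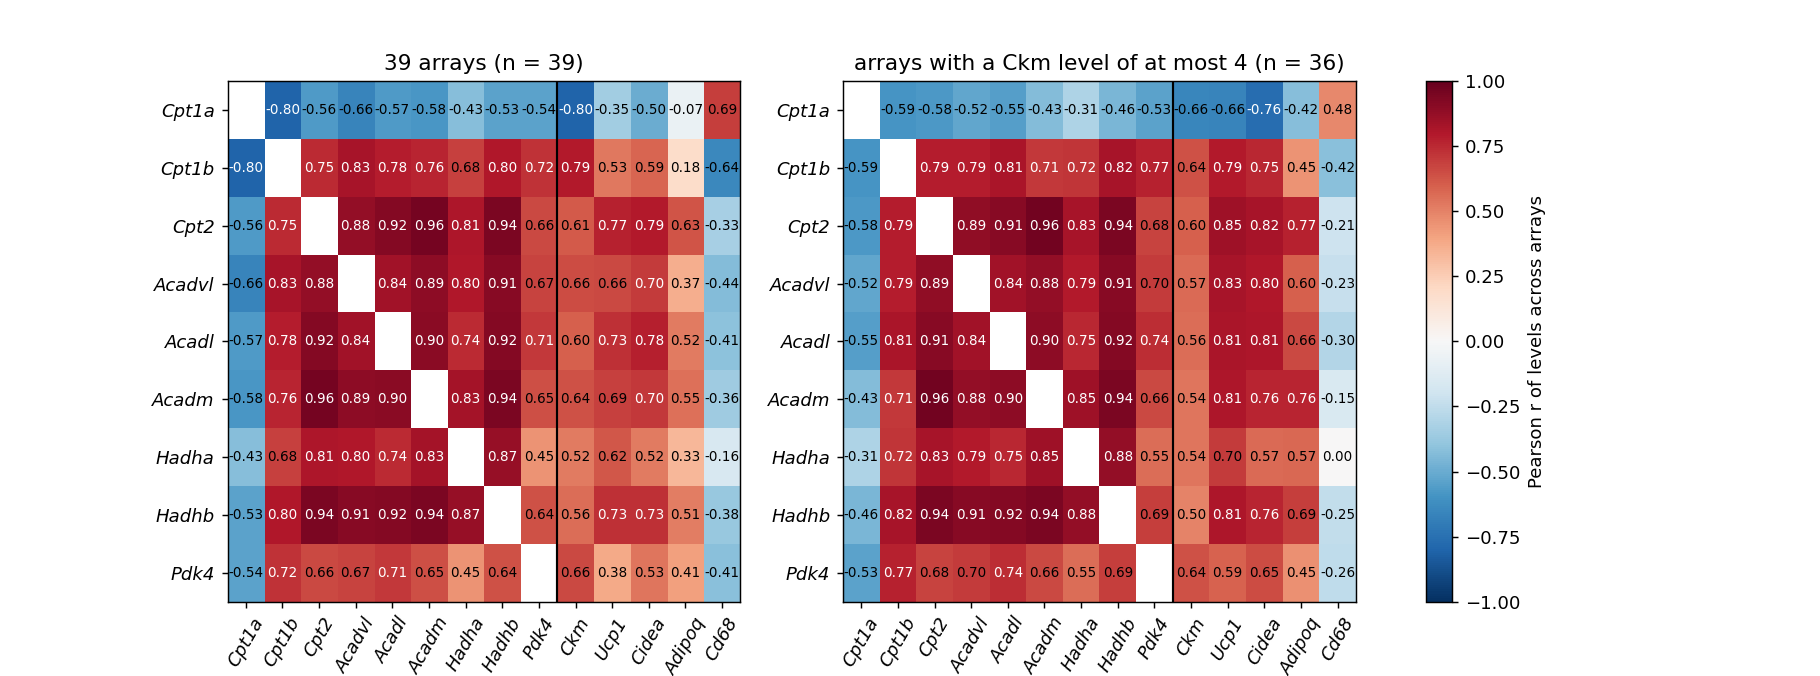
Pearson r between the levels of the 9 genes and of 5 markers (Ckm for skeletal muscle, Ucp1 and Cidea for brown and beige fat, Adipoq for adipocytes, Cd68 for macrophages), over 39 arrays on the left and over the 36 with a Ckm level of at most 4 on the right. The 8 genes other than Cpt1a form a block of positive values, and the Cpt1a row is negative against all of them.

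The same 8 genes mostly had positive correlations with Ucp1, Ckm and Adipoq and negative ones with Cd68, of a size that differed with the arrays used. Over the 36 arrays with a Ckm level of at most 4, their r with Ucp1 was 0.59 (Pdk4) to 0.85 (Cpt2), and with Ckm 0.50 (Hadhb) to 0.64 (Cpt1b). For Cpt1a these were −0.66 with both. Over all 39 arrays, r with Ucp1 was 0.38 (Pdk4) to 0.77 (Cpt2) and −0.35 for Cpt1a, and with Ckm 0.52 (Hadha) to 0.79 (Cpt1b) and −0.80 for Cpt1a. With Adipoq, the adipocyte hormone adiponectin, r was 0.45 (Cpt1b) to 0.77 (Cpt2) for the 8 and −0.42 for Cpt1a over these 36 arrays, and 0.18 (Cpt1b) to 0.63 (Cpt2) and −0.07 for Cpt1a over 39. Within time points, r with Adipoq was 0.06 (Cpt1b) to 0.54 (Acadl) for the 8 and near 0 for Cpt1a. With Cd68, a macrophage marker, Cpt1a had r = 0.69 over 39 arrays and 0.48 over 36. The 8 other genes had −0.64 (Cpt1b) to −0.16 (Hadha) with Cd68 over 39 arrays and −0.66 (Cpt1b) to −0.24 (Hadha) within time points. Over 36 arrays 7 of them had −0.42 (Cpt1b) to −0.15 (Acadm), and Hadha was near 0. For deviations from the mean of a time point, r with Ucp1 was 0.13 (Cpt1b) to 0.48 (Cpt2) for 7 of the 8 genes and near 0 for Pdk4 and Cpt1a, while r with Ckm was −0.72 for Cpt1a, 0.65 for Cpt1b, 0.69 for Pdk4 and 0.27 (Hadhb) to 0.41 (Acadm) for the other 6. The part of muscle, brown fat, adipocyte or macrophage content in these levels was not tested.

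Over the 39 arrays Cpt1b had the widest range of the 9 genes (7.92 on the log2 scale) and Cpt1a the narrowest (3.77). On the HF75 array of Week 3, Cpt1b was at 5.05, its highest level, and Cpt1a at −1.06, its lowest. On the HFC array of Day 1, Cpt1b was at 3.82 and Cpt1a at −0.63, and on the array labelled HF5 at Week 12 they were at 1.48 and 0.92. The other 36 arrays held Cpt1a between 0.91 and 2.71 and Cpt1b between −2.87 and 3.94. Cpt1a on the HFC Day 1 and HF75 Week 3 arrays thus lay below all other arrays. Cpt1b on the HF75 Week 3 array lay above them, and on the HFC Day 1 array within their range. Pdk4 was also highest on the HF75 array of Week 3 (6.03), but at 1.90, rank 29 of 39, on the HFC array of Day 1. Acadvl was at 7.38 on the HF75 array, but its rank cannot be read, since the levels of the 3 arrays with saturated Acadvl spots (6.12 to 6.48) are lower bounds. Hadha was at 1.73 on the HF75 array of Week 3 and at −0.97, rank 34, on the array labelled HF5 at Week 12.

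**Figure D3:**
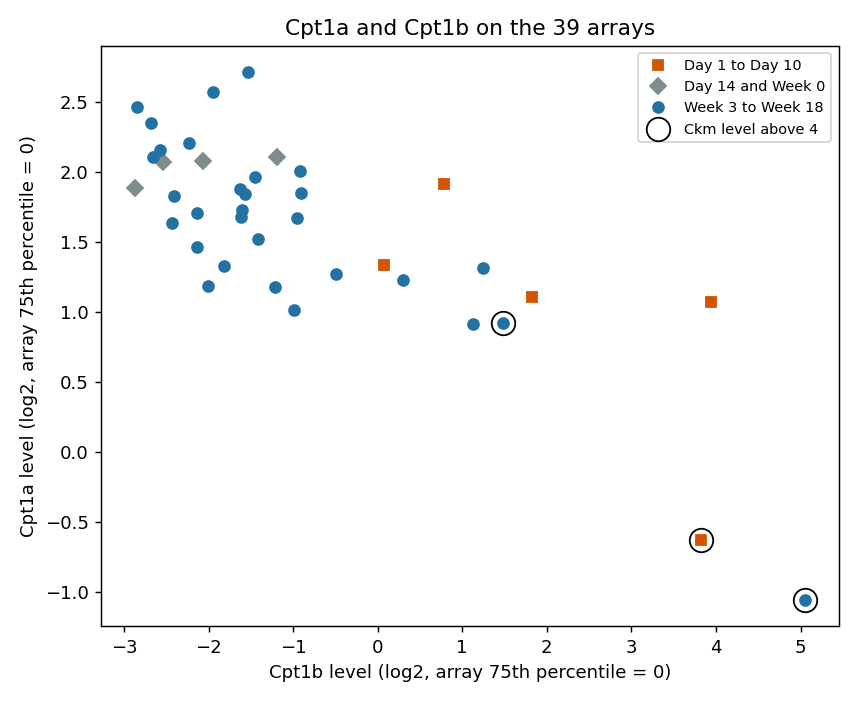
Cpt1a level (y axis) against Cpt1b level (x axis), both log2 with 0 at the 75th percentile of the array, for the 39 arrays, coloured by period, with open circles around the 3 arrays with a Ckm level above 4. Cpt1a is below 0 on 2 arrays, both circled, with Cpt1b at 3.82 and 5.05.

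The first comparison asked whether the high-fat diet shifted these genes against the low-fat diet at the same time points. None of the 9 passed an adjusted p of 0.05 in limma with the time point as a block, beside 0 of 19865 genes tested (0%), and none had an unadjusted p under 0.05, beside 1173 genes (5.9%). By the main probes, the CPT1 genes had the largest differences, in opposite directions. Cpt1a had an HFC minus LFC difference of 0.35 (log2, SE 0.17, 95% interval −0.02 to 0.73, p = 0.0615, adjusted p = 0.801, 10 pairs), and Cpt1b one of −0.58 (SE 0.47, 95% interval −1.62 to 0.45, adjusted p = 0.832). Their second probes gave 0.39 (SE 0.20) for Cpt1a and −0.0899 (SE 0.45) for Cpt1b, so the Cpt1b difference was not seen with both probes. The other 7 differences ran from −0.25 (Hadhb) to 0.23 (Acadm). The median of the 9 was 0.11, and that of all genes tested −0.04.

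Cpt1a in LFC was at 1.11, 1.34, 2.11 and 2.08 at the early time points and in HFC at 1.07, 1.92, 1.89 and 2.07. From Week 3 to Week 18 it was at 1.19, 2.21, 1.01, 0.91, 1.88 and 1.23 in LFC and at 1.27, 2.46, 2.16, 1.64, 2.11 and 2.01 in HFC. HFC was the higher at each of these 6 weeks, by 0.09 to 1.15, and at 1 of the 4 early time points, although the ranges of the diets overlap. In the same comparison over 10 time points all 6 macrophage markers tested were higher in HFC, with a median of 0.72, and all 7 brown and beige markers tested were lower, with a median of −0.76. Of the 17 skeletal muscle markers 14 were lower in HFC, with a median of −0.68, and all 5 lymphocyte markers tested were lower, with a median of −1.20. Their part in the Cpt1a and Cpt1b differences was not tested.

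Cpt1b in LFC was at 1.83, 0.08, −1.19 and −2.07 at the early time points and in HFC at 3.94, 0.78, −2.87 and −2.53. From Week 3 on it was at −2.01, −2.23, −0.99, 1.13, −1.63 and 0.30 in LFC and at −0.49, −2.85, −2.58, −2.43, −2.66 and −0.91 in HFC. HFC was the higher at Day 6, Day 10 and Week 3 and the lower at the other 7 time points. Over Week 3 to Week 18 alone, where 0 of 21084 genes passed (0%) and 1058 had an unadjusted p under 0.05 (5.02%), the HFC minus LFC difference was −1.08 for Cpt1b (SE 0.83, adjusted p = 0.861) and 0.54 for Cpt1a (SE 0.32, adjusted p = 0.855). The second probes gave −0.38 (SE 0.70) and 0.54 (SE 0.36). These SE come from the spread shared by all 30 arrays of those weeks, KAL-1 groups included. Over the 6 HFC and LFC pairs alone, the SD of the main probe difference was 1.63 for Cpt1b and 0.41 for Cpt1a. Over the same weeks all 17 skeletal muscle markers were lower in HFC, with a median of −1.27, as were all 8 brown and beige markers, with a median of −0.96, and all 6 lymphocyte markers, with a median of −1.71, while all 6 macrophage markers were higher, with a median of 0.66. Their part in these differences was not tested.

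For the enzymes after CPT1 and for Pdk4, the sign of the difference varied with the time point. Counting the 8 genes other than Cpt1a, HFC was higher for 7 at Day 6, 7 at Day 10, 2 at Day 14, 7 at Week 0, 8 at Week 3 and 7 at Week 6, then for 0 at Week 9, 0 at Week 12, 2 at Week 15 and 1 at Week 18. At Week 3, Cpt2 was at 5.16 in HFC and 2.43 in LFC, and Acadm at 5.33 and 2.90. At Week 12, Cpt2 was at 2.06 in HFC and 5.47 in LFC, and Hadhb at 2.25 and 5.98. The median difference of the 9 genes was 1.63 at Week 3 and −2.78 at Week 12. A test of the late against the early diet difference called 0 of 9 beside 0 of 19865 genes (0%) at an adjusted p of 0.05, and 0 of 9 beside 379 (1.91%) at an unadjusted p of 0.05. The 9 late minus early values ran from −1.25 (Cpt1b) to 0.46 (Cpt1a).

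**Figure D4:**
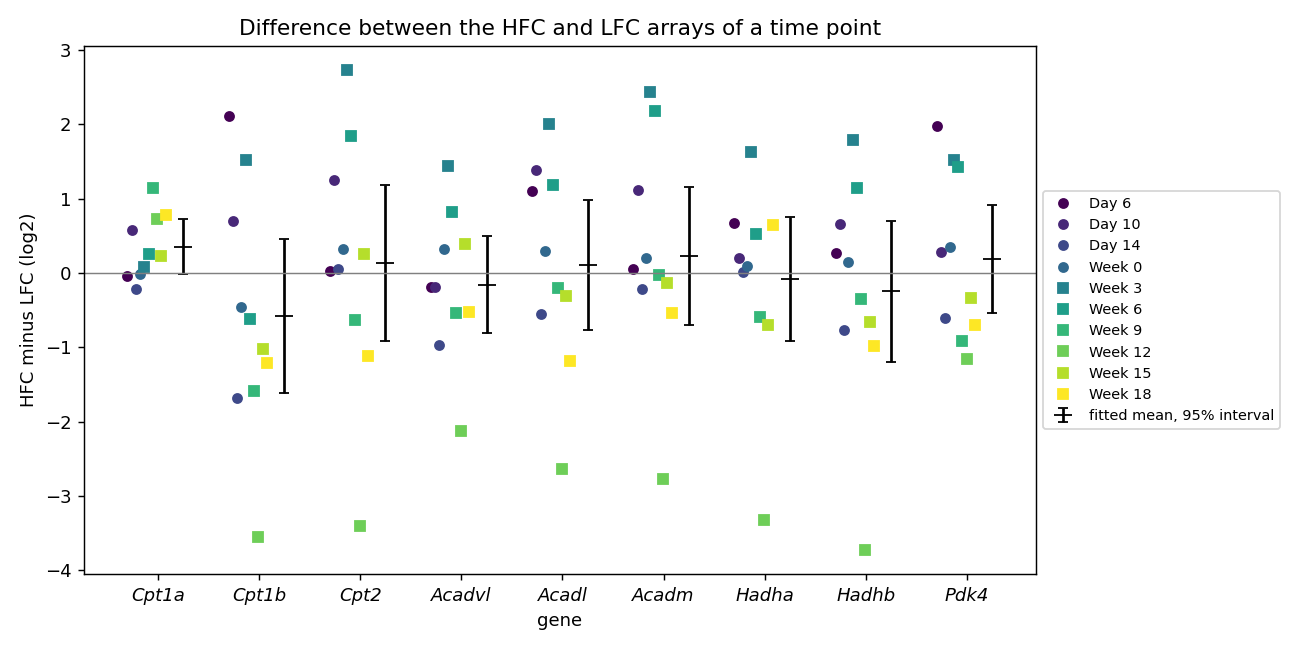
HFC minus LFC level (y axis, log2) of each gene (x axis) at each of the 10 time points, early as circles and Week 3 to Week 18 as squares, coloured by time point, with the fitted mean and its 95% interval in black. The fitted intervals of all 9 genes include 0, and Cpt1a has the narrowest spread, from −0.22 to 1.15.

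The Week 12 arrays were scanned on 2 days, LFC with the arrays labelled HF5 and HF20 on one and HFC with HF75 on the other. The levels of 8 of the 9 genes did not overlap between these sets, beside 39.5% of 21068 genes. Cpt1b was at 1.13 to 1.48 on the first set and at −2.43 and −2.14 on the second, and Cpt2 at 3.91 to 5.47 against 2.06 and 2.99. Cpt1a was the one that was lower on the first set, at 0.91 to 1.32 against 1.47 and 1.64, and Hadha the one that overlapped. Summed levels of the 8 brown and beige markers were 6.19 to 8.43 on the first set and 2.90 and 4.39 on the second. The 6.19 was that of the array labelled HF5, with Ucp1 at −0.75, Cidea at 3.58 and Ckm at 5.69. Ucp1 was at 2.82 on the LFC array and at 6.52 on the array labelled HF20. On HFC and HF75, Ucp1 was at −1.48 and −0.13, and Cidea at 0.74 and 3.40. At this week scan day and diet cannot be told apart between LFC and HFC. Over the 8 pairs that shared a scan day, the mean HFC minus LFC difference was 0.36 ± 0.45 (SD, n = 8) for Cpt1a, −0.55 ± 1.13 for Cpt1b and 0.63 ± 1.14 for Acadm, and it was positive for Acadvl (0.09), Hadha (0.23) and Hadhb (0.12), which are negative over all 10 pairs.

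The second comparison asked whether KAL-1 shifted the genes under the high-fat diet, each dose against HFC at the same weeks. None of the 9 passed an adjusted p of 0.05 at any dose, beside 0 of 21084 genes (0%) at each of the 3. The 3 doses share the HFC arrays, so their differences are not independent of each other. Unadjusted p was under 0.05 for 0 of 9 genes at 5 µg (background 1.38%), 0 of 9 at 20 µg (3.99%) and 1 of 9 at 75 µg (4.98%), which was Cpt1a.

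Cpt1b was at −0.95, −2.69, −1.57, 1.48, −2.41 and −1.60 from Week 3 to Week 18 in HF5, at −0.90, −1.95, −2.13, 1.24, −1.41 and −1.62 in HF20, and at 5.05, −1.54, −1.81, −2.14, −1.45 and −1.21 in HF75. All 3 series overlap that of HFC (−2.85 to −0.49), and each mean above it leans on 1 array. The Cpt1b difference from HFC was 0.70 (SE 0.83) for HF5, 0.86 (SE 0.83) for HF20 and 1.47 (SE 0.83, p = 0.0892, adjusted p = 0.875) for HF75. Without Week 12, whose HF5 and HF20 arrays also differed from HFC in scan day, it was 0.05 for HF5 and 0.29 for HF20, and without Week 3 it was 0.66 for HF75. In a fit without the arrays with a Ckm level above 4 (HF75 at Week 3 and the array labelled HF5 at Week 12) that kept the other diets of those weeks, it was 0.42. All 17 skeletal muscle markers were higher than in HFC in HF5, with a median of 1.76, and in HF20, with a median of 1.54. Without the arrays with a Ckm level above 4, 16 of 17 were higher in HF5, with a median of 0.85. The second Cpt1b probe gave 0.48 for HF5, 0.85 for HF20 and 1.38 for HF75 (SE 0.70 for each).

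Cpt1a was at −1.06, 2.71, 1.33, 1.47, 1.96 and 1.18 from Week 3 to Week 18 in HF75, below HFC at 5 of 6 weeks. The difference was −0.68 (SE 0.32, 95% interval −1.33 to −0.02, p = 0.0426, adjusted p = 0.875), −0.35 without Week 3, and −0.26 in the fit that left out the arrays with a Ckm level above 4. The second Cpt1a probe gave −0.20 (SE 0.36). For HF5 and HF20, the Cpt1a difference was −0.22 and −0.17 (SE 0.32 for both) with the main probe, and −0.15 (SE 0.36) and 0.33 (SE 0.37) with the second, which thus had the opposite sign for HF20.

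The other 7 genes were higher in HF75 than in HFC by 0.12 (Hadha) to 0.82 (Pdk4) on the log2 scale, with SE of 0.48 to 0.58. Without Week 3, the mean of 5 weeks was 0.26 for Pdk4, 0.40 for Hadhb, 0.55 for Cpt2, 0.36 for Acadm, 0.31 for Acadl, 0.10 for Acadvl and −0.10 for Hadha. The fit without the arrays with a Ckm level above 4, which kept the other arrays of Week 3 and Week 12, gave 0.13 for Pdk4, 0.14 for Hadhb, 0.16 for Cpt2, 0.07 for Acadm, 0.05 for Acadl, −0.08 for Acadvl and −0.30 for Hadha. The sign thus turned for Hadha either way and for Acadvl only in the second. In the same comparison all 17 skeletal muscle markers were higher in HF75, with a median of 2.72, and all 6 macrophage markers were lower, with a median of −1.02, against a median of 0.00 over all genes. Without Week 3, 14 of 17 muscle markers were higher, with a median of 0.82, and all 6 macrophage markers were lower, with a median of −0.60. The part of either cell type in the differences was not tested. At Week 6 the HF20 and HF75 arrays were scanned on another day than HFC. Over the 5 weeks on which HF75 and HFC shared a scan day, the mean difference was 1.16 ± 1.51 (SD, n = 5) for Pdk4, 0.79 ± 0.77 for Cpt2 and −0.86 ± 0.89 for Cpt1a, and these weeks include Week 3. In HF5, 6 of these 7 genes were lower than in HFC, and in HF20 5 of 7, the values running from −0.35 (Acadl in HF20) to 0.57 (Pdk4 in HF5). When the labels of these 2 doses were swapped at Week 12, an alternative chosen after seeing the data, 4 of 7 were lower in HF5 and 6 of 7 in HF20. Acadvl then turned to 0.05 and Hadhb to 0.11 in HF5, and Hadha to −0.25 in HF20. Without Week 12, which also leaves the weeks of a shared scan day, HF5 minus HFC was −0.72 for Cpt2, −0.72 for Acadm, −0.53 for Acadl, −0.55 for Hadhb, −0.46 for Acadvl, −0.39 for Hadha and 0.24 for Pdk4. Over the 4 weeks on which HF20 and HFC shared a scan day, the mean difference was −0.83 for Acadvl, −0.78 for Cpt2, −0.71 for Acadl, −0.57 for Hadhb, −0.43 for Acadm, −0.29 for Hadha and 0.46 for Pdk4. Without the arrays with a Ckm level above 4, 8 of 10 adipocyte markers were lower than in HFC in HF5 (median −0.60) and 8 of 10 in HF20 (median −0.68). All 6 lymphocyte markers were higher in both (medians 1.00 and 1.54). Macrophage markers were lower for 4 of 6 in HF5 (median −0.13) and 6 of 6 in HF20 (median −0.81). Their part in the HF5 and HF20 differences was not tested.

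**Figure D5:**
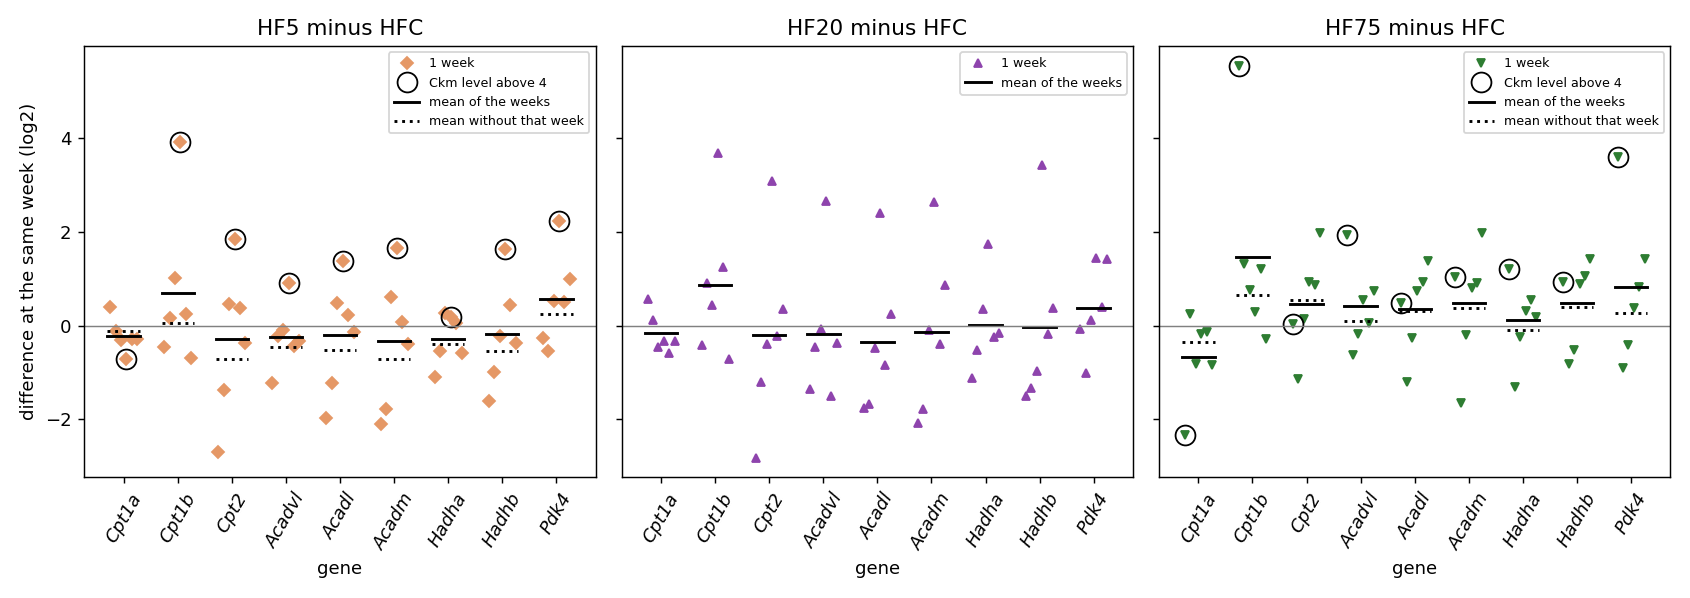
Level in HF5, HF20 and HF75 (panels from left to right) minus the HFC level of the same week (y axis, log2) for each gene (x axis), 1 symbol per week, with the mean of 6 weeks as a solid line. Open circles mark weeks with a Ckm level above 4 and dotted lines the mean of the other 5 weeks, which for Cpt1b in HF75 is 0.66 against 1.47 over all weeks.

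All 3 doses together differed from HFC by −0.35 for Cpt1a (SE 0.26), 1.01 for Cpt1b (SE 0.68) and 0.59 for Pdk4 (SE 0.44). The other 6 differences ran from −0.07 to 0.09. Without the arrays with a Ckm level above 4, the difference was −0.19 for Cpt1a, 0.53 for Cpt1b and 0.29 for Pdk4. Over all arrays, the second probes of Cpt1a and Cpt1b gave −0.00823 (SE 0.29) and 0.90 (SE 0.57). None passed, beside 0 of 21084 genes (0%), and none had an unadjusted p under 0.05, beside 955 genes (4.53%).

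The third comparison asked how the genes moved with time. In LFC and HFC together, 8 of 9 levels were lower from Week 3 to Week 18 (12 arrays) than from Day 1 to Week 0 (9 arrays), but none passed an adjusted p of 0.05, beside 2 of 20519 genes (0.00975%). Unadjusted p was under 0.05 for 2 of 9, Hadha and Acadm, both lower, beside 11.2% of genes in either direction. Late minus early was −1.26 for Hadha (SE 0.55, adjusted p = 0.414), −1.21 for Acadm (SE 0.58, adjusted p = 0.447), −1.10 for Hadhb (SE 0.57) and −1.09 for Cpt2 (SE 0.67). Cpt1b had −1.79 (SE 0.90, adjusted p = 0.458) with its main and −2.33 (SE 0.83) with its second probe. Acadvl had −0.86, Acadl −0.85 and Pdk4 −0.32. Cpt1a had 0.32 (SE 0.35), and its second probe −0.26.

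Hadha was at 2.03 on Day 1 in HFC, at 2.39, 1.62, 0.07 and −0.26 in LFC and at 3.06, 1.82, 0.09 and −0.16 in HFC from Day 6 to Week 0. Later LFC levels were −1.12, 0.26, 0.64, 2.16, −0.50 and −0.78, and later HFC levels 0.52, 0.78, 0.05, −1.16, −1.20 and −0.13. The high early levels were those of Day 1 to Day 10, but only those of Day 6 lay above every later level. The levels of Day 1, Day 10, Day 14 and Week 0 lay within the range of the later weeks, whose highest was LFC at Week 12 (2.16). Acadm showed the same order, at 5.35 to 6.46 on the 5 arrays of Day 1 to Day 10 and at 3.47 to 3.86 on the 4 of Day 14 and Week 0. Its later LFC and HFC levels ran from 2.72 to 6.02. Skeletal muscle markers were lower late for 17 of 17, with a median of −3.07, and brown and beige markers had a median of −1.88. Without the HFC array of Day 1, the difference was −1.19 for Cpt1b and −0.02 for Cpt1a. With the arrays of Day 6 also left out, by a Ckm limit of 2, the late minus early differences shrank to −0.15 for Cpt1b, −0.57 for Hadha, −0.65 for Acadm and −0.48 for Cpt2.

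Between Week 3 and Week 18, the change per week of the 9 genes over all 5 diets ran from −0.05 (Hadha, SE 0.03, adjusted p = 0.376) to 0.06 (Pdk4, SE 0.04, adjusted p = 0.446) on the log2 scale. None passed an adjusted p of 0.05, beside 0.0901% of genes, or an unadjusted one, beside 15.3%. This fit had no block, although the 5 diets of a week share the time point. With the time point as a random block, SE was 0.04 for Hadha (adjusted p = 0.816) and 0.05 for Pdk4 (adjusted p = 0.819), and 0.00474% of genes passed the adjusted and 5.36% the unadjusted threshold.

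Genes with related roles were read from lists, none with a member past the adjusted threshold in the comparisons given here. Of 20 other mitochondrial fatty acid oxidation genes, 0 were higher late than early in LFC and HFC, 5 had an unadjusted p under 0.05 (11.2% of all genes), and the median was −0.92, against −0.03 for all genes. The 2 with the smallest p were Acad11, an acyl-CoA dehydrogenase (−1.93, SE 0.81), and Acaa2, a thiolase (−0.81, SE 0.35). In HFC against LFC, 15 of the 20 were higher, with a median of 0.18, and in HF75 against HFC 16 of 20, with a median of 0.26. Without the arrays with a Ckm level above 4, 8 of 20 were higher in HF75, with a median of −0.0556, against −0.0239 for all genes. Over all arrays the smallest p belonged to Slc25a20, the carnitine-acylcarnitine carrier between CPT1 and CPT2 (0.98, SE 0.49, adjusted p = 0.875), and Etfb, which takes electrons from the dehydrogenases (0.63, SE 0.39). Without those arrays they had 0.58 (SE 0.48) and 0.35 (SE 0.38).

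Of the pyruvate dehydrogenase list, which holds the complex and its kinases and phosphatases other than Pdk4, 0 of 9 genes were higher late than early, with a median of −1.04. Dlat, its acetyltransferase subunit, was at −1.74 (SE 0.63) and Pdhx at −1.25 (SE 0.61). Peroxisomal oxidation genes had a median of −0.60 in this comparison, with 1 of 12 higher, and 0.26 in HFC against LFC, with 11 of 12 higher. In HFC against LFC over Week 3 to Week 18, fitted without the arrays with a Ckm level above 4, 8 of 12 were higher, with a median of 0.16. In that fit 8 of 10 adipocyte markers were also higher, with a median of 0.32. The part of adipocyte content was not tested. Among the regulators, Ppara, a fatty acid receptor, had −2.05 (SE 1.02) and Prkaa2, a catalytic subunit of AMPK, −1.68 (SE 0.69) late against early, with a list median of −0.45. Nrip1, a corepressor of oxidative genes, was at 0.61 (SE 0.26) in HFC against LFC and at −0.76 (SE 0.32) in HF75 against HFC. Glucocorticoid-responsive genes went the other way in time, 9 of 10 being higher late, with a median of 0.69 and Mt2, a metallothionein, at 2.33 (SE 0.84). Genes that respond to PPAR and fasting had a median of −0.31 late against early, led by Acot1, an acyl-CoA thioesterase (−1.42, SE 0.55), and Ucp3 (−3.24, SE 1.31). Ucp3 was well above background on only 22 of 39 arrays. Without the HFC array of Day 1, the median of the PPAR and fasting list was −0.68, and the difference was −0.93 (SE 0.44) for Prkaa2.

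The genes whose levels were most like those of each member were sought among 12144 genes well above background on 39 arrays. For Cpt1b they included 1700020C11Rik (r = 0.94), Ppargc1a, a coactivator of mitochondrial genes (0.93), and Fmc1 (0.93). For Cpt2 they were Nudt7 (0.97), Hibch (0.97), Echs1, the hydratase of short chains (0.96), and Ccdc90a (0.96). Acadm was most like Gm5131 (0.98), Cpt2 (0.96), Idh3a (0.95) and Hibch (0.95), and Hadhb most like 9530058B02Rik (0.96), Dlat (0.96), Dci (0.94) and Acadm (0.94). For Acadvl they were Uqcrc2, Ndufa9, Dlst and Cs (0.93 each), which serve the respiratory chain and the citrate cycle, and for Acadl Gm9108, Gm5131, Etfa and Dld (0.93 to 0.94). Hadha was closest to Ptges2 (0.94), Poldip2, Mrps2 and Fdft1 (0.92 each), though it shares its upstream region with Hadhb, with which it had r = 0.87. Pdk4 had no gene above 0.78, which was that of Dnaja3, followed by Fdx1, Mmaa and Acot13 (0.75 each).

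Cpt1a was most like Renbp (0.87), Lxn (0.87), Pnp1 (0.86) and Cmtm3 (0.86), none of them an oxidation gene. Over the 36 arrays with a Ckm level of at most 4, where 13100 genes were well above background throughout and were compared, its 4 closest were Dtx3 (0.84), Zdhhc14, Plxnb2 and Frmd4b (0.83 each), none of them among the first 4, while those of Cpt2 still included Nudt7, Hibch and Echs1 at 0.97 each. The closest 4 also changed for other members. Ppargc1a was no longer among those of Cpt1b, which were 1700020C11Rik and 1810014F10Rik (0.90 each), Fmc1 and Rmnd1 (0.89 each). Those of Hadha were Ubac1, Ptges2, Gm5617 and 2310061I04Rik (0.94 each), and those of Pdk4 were Gm4935 and Asns (0.79 each), Mmaa and Dlst (0.77 each). These coefficients describe arrays that share time points and scan days.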

How the data were processed

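RNA of mouse subcutaneous adipose tissue had been labelled with Cy3 and hybridised to 1-colour Agilent arrays. The authors deposited 1 scanner file per array, with spot intensities that Agilent Feature Extraction (10.5.1.1 per the file headers, 9.1 in the submitters' processing notes) had background-subtracted, and a table of log2 ratios used here only to check labels. Its direction and scaling are not given in the sources used here.

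From the deposited intensities, control spots and spots flagged as outliers were left out, log2 intensity was centred on the 75th percentile of each array, and spots of 1 probe were averaged. A gene was read by its probe with the highest mean. Genes were tested if well above background on at least 10 arrays (10 time points), 6 (Week 3 to Week 18) or 9 (late against early). Differences were fitted in limma 3.58.1 (R 4.3.3) with lmFit and eBayes over all genes, with the time point as a block, as a random block (correlation 0.31) for late against early levels, or without a block for the change per week, and p-values were adjusted by Benjamini-Hochberg with a threshold of 0.05. The scripts were tested on simulated data. Replicates are time points, so the number of arrays limits the precision.

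The labels put 1 array of each diet at a time point, and this shared time point is the pairing. Results were recomputed with normexp (offset 50) in place of the scanner's correction, after quantile normalization, with other filters, all probes, flagged spots kept, a robust trended prior, other blocks, arrays with a Ckm level above 4 or 2 left out, and each time point left out. Named genes were all 9 members, for other lists the 2 genes with the smallest p in a comparison (of which some are given), and for likeness the 4 with the highest Pearson r, of which 1 is not reported here. The members and lists were chosen with earlier results of these data known. Tables and correlations were made in Python 3.11.15 with pandas 2.3.3 and numpy 2.4.6.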

Additional observations from a re-analysis of the deposited data

Results flagged for a closer look

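The 9 genes in LFC (10 arrays), HF5, HF20 and HF75 (6 arrays each) gave 36 sets of levels. In 6 of them 1 array lay far from the others by Dixon's ratio, at a limit that chance passes in about 1 of 20 independent sets. The 36 sets are not independent, since the genes were read on the same arrays and most of them moved together. The 6 sets, which come from the arrays named next, thus cannot be counted against that rate. The array labelled HF20 at Week 12 was the far one for 4 genes, with Cpt1b at 1.24 (nearest other HF20 array −0.90), Cpt2 at 5.14 (nearest 2.77), Acadl at 3.13 (nearest 0.90) and Hadhb at 5.66 (nearest 3.20). Its Ckm level was −2.78. The HF75 array of Week 3 was the far one for Cpt1b at 5.05 (nearest −1.21) and Hadha at 1.73 (nearest 0.05), with a Ckm level of 7.93, where its spots were saturated.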

How the results depend on the processing

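No difference of the 9 genes passed an adjusted p of 0.05 under any of 1638 alternative values of 81 differences (lowest 0.0577), and 139 values, in 46 of the differences, had the opposite sign. For HFC minus LFC over 10 time points, Acadvl turned to 0.16 with normexp and to 0.0938 with scan day as a block, which also turned Hadha to 0.23 and Hadhb to 0.12. Without arrays with a Ckm level above 2, Acadl was −0.00154 and Pdk4 −0.0138. Leaving out 1 time point gave −0.10 to 0.41 for Acadl, −0.0152 to 0.56 for Acadm, −0.33 to 0.0631 for Acadvl, −0.15 to 0.53 for Cpt2, −0.27 to 0.28 for Hadha, −0.47 to 0.14 for Hadhb and −0.0138 to 0.33 for Pdk4. The extremes on the turned side came without Week 3 for Cpt2, Acadl and Acadm, without Week 12 for Acadvl, Hadha and Hadhb, and without Day 6 for Pdk4. For HF75 minus HFC, leaving out arrays with a Ckm level above 4 or above 2 gave −0.0820 for Acadvl and −0.30 for Hadha, and leaving out 1 week gave −0.10 to 0.40 for Hadha. For late minus early, Cpt1a was −0.0236 and −0.23 without arrays with a Ckm level above 4 and 2, and Pdk4 0.15 without those above 2. Leaving out 1 time point there gave −0.0236 to 0.50 for Cpt1a and −0.67 to 0.20 for Pdk4. The cause was not tested.

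Without the time point as replicate block, Cpt1a in HFC minus LFC stayed at 0.35 (limma p = 0.128) and Cpt1b at −0.58, and no member passed in any comparison. Over all genes, late against early called 22 genes without the block and 2 with it, and the change per week called 1 gene with time point as random block and 19 without. The change per week also called 2720 genes without Week 3, and HF20 against HFC called 7826 with normexp and 0 otherwise, with no member among them. Normexp moved the median of all genes for HF20 minus HFC to 0.31. Exchanging the Week 12 arrays of HF5 and HF20, or leaving out the HF20 array of Week 15, both chosen after seeing the data, called no member. Slide as random block could not be fitted for 3 comparisons and is not run there.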

Other observations

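Markers of 4 further tissues were read beside the 9 genes and none passed an adjusted p of 0.05 in any comparison. Late against early in LFC and HFC, the median difference was 0.65 for 6 lymphocyte genes, −0.11 for 5 epithelial genes, −2.34 for 2 hepatocyte genes and 0.08 for 3 cardiac muscle genes. In HFC against LFC over 10 time points, 4 of the 6 macrophage markers tested had an unadjusted p under 0.05, beside 5.9% of all genes.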
